A study of Homo sapiens with 8 samples.

Results

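Ribosome biogenesis was followed through 52 genes of ribosome assembly and RNA polymerase I, found by gene symbol among 19124 genes measured in 8 RNA sequencing libraries. Levels were deposited under the name RPKM, which stands for reads per kilobase of transcript scaled to a fixed number of mapped reads. The values did not keep to that definition. RPKM times annotated length in kilobases, by definition at most 1 M in sum, summed to 17.2 to 21.95 M per library. Divided by the number of exons, it summed to 1.67 to 1.74 M. The values thus behaved only roughly like sums over exons, which was not tested further, and levels were not compared between genes. All 52 genes had a value in every library, and all passed the filter for testing, 1 RPKM or more on average. The lowest mean was 21.9 RPKM, for IMP3, 1 of 2 members annotated with a single exon, so it does not rank its expression. By their known roles, 5 act in transcription by polymerase I, 17 in assembly of the small (40S) subunit, 19 in assembly of the large (60S) subunit and 8 in small nucleolar ribonucleoproteins (snoRNPs). The remaining 3, NCL, NPM1 and DDX21, are abundant nucleolar proteins.

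RNA was taken 48 h after transfection with siRNA at 15 nM. The siRNAs were directed against RPL9, RPL17 or RPL27, proteins of the large ribosomal subunit, or were a negative control (NC). HCT116 and HT29, both established human colorectal cancer lines, received each siRNA, so each combination of line and siRNA has 1 library. The series' title and design text name RPL9 and NC siRNA alone, while the sample labels give all 4 siRNAs. No siRNA was repeated within a line, so there is no replicate error for a value of 1 line. The labels do not give the siRNA sequences, so loss of a target and other effects of its siRNA cannot be told apart.

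In the nucleolus, polymerase I copies the ribosomal RNA genes into a long precursor. The small subunit processome and the 60S assembly factors fold, cut and package this precursor with ribosomal proteins, while box C/D and box H/ACA snoRNPs methylate and pseudouridylate it. The 3 targeted proteins are structural parts of the 60S subunit. Genes of this machinery are known targets of the transcription factor MYC, which binds as a dimer with MAX to the E-box CACGTG.

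The promoters were searched for CACGTG because it is the E-box through which MYC is known to act on this pathway. Windows of 300 bases, 250 before to 50 after each gene's start, were taken from RefSeq (GRCh38.p14) for 44 of the 52 genes. The genes with no entry were BOP1, DDX18, NOLC1, NOP58, RPF2, RRP12, RRP1B and RRS1. CACGTG, which reads the same on both strands, was in 21 of the 44 windows (47.7%), against 12.1% of the windows of 10627 tested genes. By group, 8 of 14 windows of 60S genes held it, 9 of 16 of 40S genes, 3 of 6 of snoRNP genes, 1 of 3 of the other nucleolar genes and 0 of 5 of polymerase I genes. The excess lay just inside the transcribed part: a whole match within the first 50 transcribed bases was found in 16 of the 44 windows (36.4%), against 1.39% of all windows, while a whole match before the start was found in 8 (18.2%), against 10.9%. GGGCGG (either strand), the GC box, was in 75% of the members' windows and 74.5% of all windows. CCGGAAG (either strand), the core of ETS factor sites, was in 36.4% of the members' windows and 20.5% of all windows. A match of one motif may share bases with a match of another.

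Short stretches around the match inside the transcribed part are shown for 4 assembly genes that stood above NC in every RPL siRNA library and for 2 genes that also hold it, PES1 and FBL, with CACGTG in capitals. WDR43 lies at chr2:28894660-28894685 (plus strand), PNO1 at chr2:68157887-68157912 (plus strand), NOP14 at chr4:2963376-2963401 (minus strand), MDN1 at chr6:89819752-89819777 (minus strand), PES1 at chr22:30591882-30591907 (minus strand) and FBL at chr19:39846358-39846383 (minus strand). Each is written 5′ to 3′ on the gene's strand.
WDR43: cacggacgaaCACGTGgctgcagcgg
PNO1: tgcagctgcgCACGTGtttcagccgg
NOP14: cgcggcccggCACGTGtcttagggta
MDN1: tgtgctcaccCACGTGtggtgcccct
PES1: cttggcagggCACGTGcgggaggaag
FBL: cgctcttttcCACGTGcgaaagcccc

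Matches before the start are shown for the 3 genes of this kind with the highest mean difference from NC and for NOP10, which holds 2. In MDN1 the match begins 155 bases before the start, at chr6:89819917-89819976 (minus strand); in DDX21 it begins 31 bases before, at chr10:68956587-68956646 (plus strand); in UTP20 it begins 10 bases before, at chr12:101280045-101280104 (plus strand). NOP10 lies on chromosome 15, minus strand, with windows at chr15:34343274-34343333 and chr15:34343137-34343196. A match describes these letters only and does not show binding.
MDN1: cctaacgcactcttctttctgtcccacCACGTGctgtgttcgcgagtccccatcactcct
DDX21: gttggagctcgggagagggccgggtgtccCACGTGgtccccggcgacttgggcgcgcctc
UTP20: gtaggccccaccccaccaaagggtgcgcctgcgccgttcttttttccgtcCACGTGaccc
NOP10 (170 bases before the start): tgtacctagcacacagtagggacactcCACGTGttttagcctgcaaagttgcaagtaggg
NOP10 (11 bases before the start): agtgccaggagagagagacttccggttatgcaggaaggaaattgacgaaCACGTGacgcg

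The libraries held roughly 20.7 to 26.5 M reads, estimated from those of 1186 single-exon genes whose values lay in a preset range. That range bounds the estimates, so their likeness is no test of like depth. Of the genes, 13.1% to 15.7% were listed at 0 in a library. RPL9 had 5560.1, 18619 and 18823 RPKM under RPL9, RPL17 and RPL27 siRNA in HCT116, against 17432 under NC, and 5245, 17619 and 17546 RPKM under RPL9, RPL17 and RPL27 siRNA in HT29, against 35729 under NC. RPL17 had 27302, 10004 and 31299 RPKM under RPL9, RPL17 and RPL27 siRNA in HCT116, against 25956 under NC, and 27912, 8240 and 28748 RPKM under RPL9, RPL17 and RPL27 siRNA in HT29, against 43950 under NC. RPL27 had 9280, 4723 and 2045 RPKM under RPL9, RPL17 and RPL27 siRNA in HCT116, against 7649 under NC, and 10530, 4754 and 2214 RPKM under RPL9, RPL17 and RPL27 siRNA in HT29, against 16205 under NC. Each target was thus lowest under its own siRNA in both lines, and RPL27 was also below NC under RPL17 siRNA in both. The HT29 NC library stood apart: its deviation from the mean of the libraries decreased with transcript length (rank correlation -0.53 over 14180 genes), while that of the other 7 lay between 0.12 and 0.22. Every HT29 difference from NC below carries that library, so values after removal of each library's length trend are given beside many of them. The 9 epithelial markers summed to 22707, 23059 and 20665 RPKM under RPL9, RPL17 and RPL27 siRNA in HCT116, against 15951 under NC, and to 44221, 43906 and 37960 RPKM in HT29, against 39093 under NC. CDX1 was listed at 0 in HCT116 and at most at 0.0819 RPKM in HT29. In HCT116, VIL1, LGALS4, KRT20 and CDX2 reached at most 2.89, 11.98, 16.3 and 18.8 RPKM. Most of the HCT116 sum thus came from KRT8, KRT18 and EPCAM. In HT29, CDX2 reached at most 18.3 RPKM, while VIL1, KRT20 and LGALS4 had at least 357.9, 403 and 1859 RPKM. The 14 markers of fibroblasts, leukocytes and endothelium summed to 395 to 3473 RPKM, most of it COL1A1 and, in HT29, LYZ. The part of these markers in the results was not tested. In bulk RNA, fewer cells of a kind and less RNA per cell cannot be told apart.

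In HCT116 most genes of the pathway stood above NC. Of the 52 genes, 41 (78.8%) were above NC in all 3 RPL siRNA libraries, against a background of 33% of all 14281 genes tested, and 2, FBL and NPM1, were below NC in all 3 (background 32.4%). The median log2 difference of the 52 genes was 0.51 under RPL9 siRNA, 0.39 under RPL17 siRNA and 0.27 under RPL27 siRNA, while the median of all genes over the mean of the 3 was 0.01. Differences are on the log2(RPKM + 1) scale throughout. The count was 42 after median-centring of the libraries (background 35.9%) and 41 after quantile normalization (background 34%). These values have no test, since each has 1 library. The 3 differences of a gene share the HCT116 NC library, so an effect of the siRNAs and a deviation of that library cannot be told apart.

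The groups differed in the size of the shift, and in the 4 larger groups the median was highest under RPL9 siRNA and lowest under RPL27 siRNA. Under RPL9, RPL17 and RPL27 siRNA the 40S genes had medians of 0.58, 0.54 and 0.38 above NC in HCT116 and the 60S genes 0.44, 0.35 and 0.24. Polymerase I genes had medians of 0.51, 0.30 and 0.21, and snoRNP genes 0.33, 0.24 and 0.13. The nucleolar proteins NCL, NPM1 and DDX21 had medians of 0.17, 0.26 and -0.13. Above NC in all 3 libraries were 5 of 5 polymerase I genes, 16 of 17 40S genes, 15 of 19 60S genes, 4 of 8 snoRNP genes and DDX21.

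**Figure D1:**
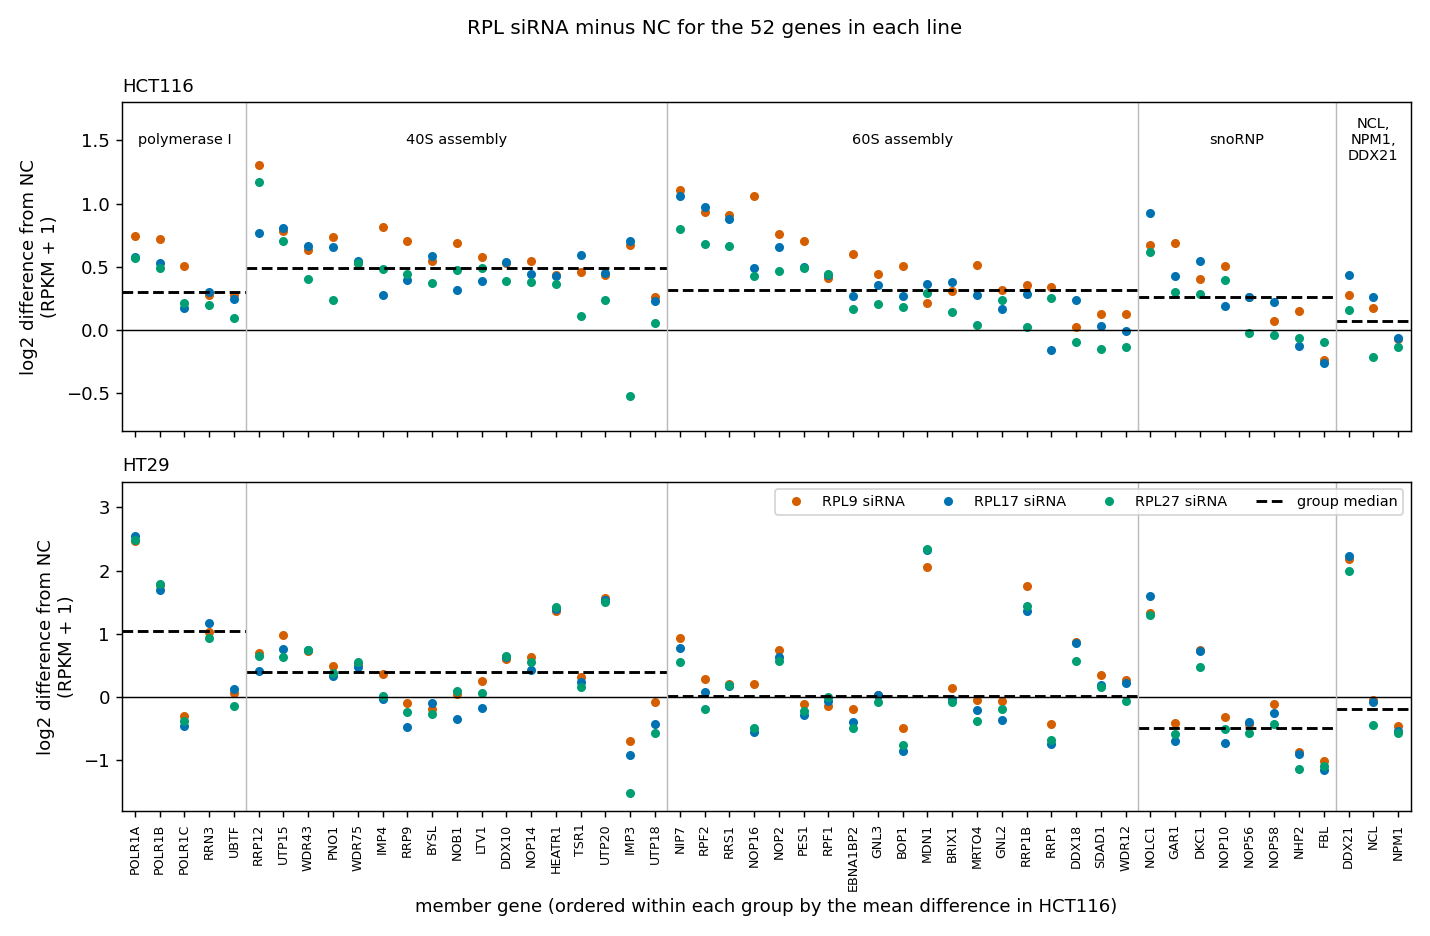
Log2 difference from NC for each of the 52 genes (x axis, grouped by role) under RPL9, RPL17 and RPL27 siRNA (points), in HCT116 (top) and HT29 (bottom, wider y axis); dashed lines mark each group's median of the mean over the 3 siRNAs. In HCT116, 41 genes have all 3 points above 0, and in HT29 23 have all 3 above and 19 all 3 below.

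Polymerase I genes stood above NC in all 3 HCT116 libraries, with the largest differences in its catalytic subunits. POLR1A, the largest subunit of polymerase I, had 1143, 1014 and 1011 RPKM under RPL9, RPL17 and RPL27 siRNA in HCT116, against 681 under NC, a mean log2 difference of 0.63 ± 0.10 (SD over the 3 siRNAs), or 1.55-fold. POLR1B, the second largest subunit, had 721, 632 and 614 RPKM under RPL9, RPL17 and RPL27 siRNA in HCT116, against 438 under NC, a mean of 0.58 ± 0.12. POLR1C, a subunit shared with polymerase III, had 643, 510.1 and 524 RPKM under RPL9, RPL17 and RPL27 siRNA in HCT116, against 451 under NC. All 3 subunits were highest under RPL9 siRNA in this line. UBTF, which binds the ribosomal RNA gene promoter, had 1192, 1164 and 1051 RPKM under RPL9, RPL17 and RPL27 siRNA in HCT116, against 984 under NC. RRN3, the initiation factor that recruits the polymerase, had 1488, 1519.7 and 1414 RPKM under RPL9, RPL17 and RPL27 siRNA in HCT116, against 1231 under NC. The shift of these 2 factors was smaller, 0.20 ± 0.10 and 0.26 ± 0.05, with every RPL siRNA library still above NC.

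In HT29 the same 5 genes split. POLR1A had 984, 1041 and 992 RPKM under RPL9, RPL17 and RPL27 siRNA in HT29, against 177 under NC, and POLR1B had 578, 549.6 and 589 RPKM under RPL9, RPL17 and RPL27 siRNA in HT29, against 169 under NC. RRN3 had 1372, 1524 and 1297 RPKM under RPL9, RPL17 and RPL27 siRNA in HT29, against 675 under NC. The 6 RPL siRNA libraries of the 2 lines held these 3 genes within narrow ranges, 984 to 1143 RPKM for POLR1A, 549.6 to 721 for POLR1B and 1297 to 1524 for RRN3, so the large HT29 differences (2.50, 1.75 and 1.05) sit with a low NC value. POLR1C had 518, 464 and 489 RPKM under RPL9, RPL17 and RPL27 siRNA in HT29, against 634 under NC, so every RPL siRNA library was below NC. UBTF had 1127, 1176 and 969.7 RPKM under RPL9, RPL17 and RPL27 siRNA in HT29, against 1071 under NC, with NC inside the range of the others. After removal of the length trend the mean HT29 differences were 0.99 for POLR1A, 1.27 for POLR1B, 0.59 for RRN3, -0.01 for POLR1C and -0.70 for UBTF.

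**Figure D2:**
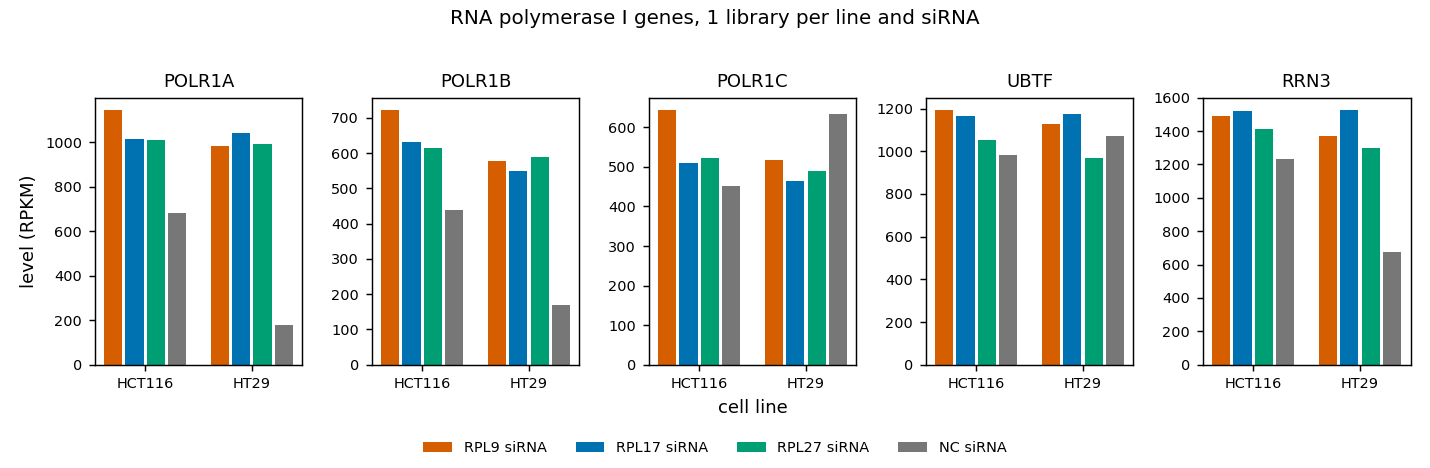
RPKM of the 5 polymerase I genes (y axis, each panel with its own scale from 0) in each library, with RPL9, RPL17, RPL27 and NC siRNA from left to right in each line and 1 library per bar. In HCT116 every RPL siRNA bar is above NC; in HT29 the NC bars of POLR1A, POLR1B and RRN3 are 177, 169 and 675 RPKM.

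Among the 40S genes, 10 of 17 were above NC in all 6 RPL siRNA libraries of the 2 lines: NOP14, UTP15, UTP20, WDR43, WDR75, HEATR1, RRP12, PNO1, DDX10 and TSR1. RRP12, which acts in export and late maturation of pre-ribosomes, had 1968, 1352 and 1789.6 RPKM under RPL9, RPL17 and RPL27 siRNA in HCT116, against 794 under NC, the largest mean difference of all 52 genes in that line (1.08, 2.12-fold). It had 1389.6, 1151 and 1352 RPKM under RPL9, RPL17 and RPL27 siRNA in HT29, against 860.1 under NC, a mean difference of 0.59 as deposited and -0.01 with the length trend removed. RRP12 was lowest among the RPL siRNAs under RPL17 in both lines. WDR43, a subunit of the small subunit processome that feeds into polymerase I transcription, had 3162, 3229.6 and 2686 RPKM under RPL9, RPL17 and RPL27 siRNA in HCT116, against 2035 under NC. WDR43 had 2267, 2303 and 2295 RPKM under RPL9, RPL17 and RPL27 siRNA in HT29, against 1369.5 under NC, a mean difference of 0.74 as deposited and 0.35 with the length trend removed. NOP14, another processome component, had 1424, 1328 and 1272 RPKM under RPL9, RPL17 and RPL27 siRNA in HCT116, against 975 under NC. It had 1186, 1039.6 and 1130.5 RPKM under RPL9, RPL17 and RPL27 siRNA in HT29, against 768 under NC, a mean difference of 0.54, and 0.33 with the length trend removed. Neither gene's NC value fell within the range of its RPL siRNA values in either line.

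HEATR1 and UTP20, with the longest annotated transcripts of the 40S genes (8447 and 9025 bases), had low HT29 NC values. HEATR1, the human counterpart of yeast Utp10, had 2245, 2234 and 2138 RPKM under RPL9, RPL17 and RPL27 siRNA in HCT116, against 1662 under NC. It had 1812, 1840.2 and 1878 RPKM under RPL9, RPL17 and RPL27 siRNA in HT29, against 700.5 under NC. UTP20, a scaffold of the processome, had 1055, 1067 and 922 RPKM under RPL9, RPL17 and RPL27 siRNA in HCT116, against 781 under NC. It had 994, 977 and 959 RPKM under RPL9, RPL17 and RPL27 siRNA in HT29, against 336 under NC. Their HT29 mean differences of 1.39 and 1.54 became 0.11 and 0.21 after removal of the length trend, while the HCT116 ones were 0.41 and 0.37 and became 0.45 and 0.41. TSR1, a GTPase-like factor of late 40S maturation, had 1392, 1527 and 1096 RPKM under RPL9, RPL17 and RPL27 siRNA in HCT116, against 1012 under NC. TSR1 had 1005, 958 and 899.6 RPKM under RPL9, RPL17 and RPL27 siRNA in HT29, against 807 under NC. Its HT29 difference was 0.24 as deposited and -0.60 with the length trend removed.

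NOB1, LTV1, BYSL, RRP9 and UTP18 stood above NC in every HCT116 library with an RPL siRNA, and in HT29 each had at least 1 such library below NC. NOB1, the nuclease that makes the mature end of 18S ribosomal RNA, had 1335, 1032 and 1155 RPKM under RPL9, RPL17 and RPL27 siRNA in HCT116, against 830.2 under NC. It had 1036, 792 and 1071 RPKM under RPL9, RPL17 and RPL27 siRNA in HT29, against 1001 under NC, so RPL17 siRNA lay below NC and the others slightly above it. LTV1, a factor for export of pre-40S particles, had 1055, 925 and 994 RPKM under RPL9, RPL17 and RPL27 siRNA in HCT116, against 708 under NC. LTV1 had 866, 645 and 765 RPKM under RPL9, RPL17 and RPL27 siRNA in HT29, against 728 under NC, again with RPL17 alone below NC. BYSL, the human counterpart of yeast Enp1, had 288, 296 and 255 RPKM under RPL9, RPL17 and RPL27 siRNA in HCT116, against 197 under NC. BYSL had 215, 231 and 204 RPKM under RPL9, RPL17 and RPL27 siRNA in HT29, against 245 under NC, all below NC. RRP9, the U3 snoRNP protein, had 1090.4, 881 and 911 RPKM under RPL9, RPL17 and RPL27 siRNA in HCT116, against 669 under NC. RRP9 had 831, 641 and 759 RPKM under RPL9, RPL17 and RPL27 siRNA in HT29, against 890.3 under NC. UTP18 had 1400.5, 1366 and 1213 RPKM under RPL9, RPL17 and RPL27 siRNA in HCT116, against 1167 under NC. UTP18 had 1272, 994 and 901 RPKM under RPL9, RPL17 and RPL27 siRNA in HT29, against 1336 under NC. For RRP9 and UTP18 every RPL siRNA library thus lay above NC in HCT116 and below NC in HT29, and after removal of the length trend their HT29 mean differences were -0.01 and -0.25.

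IMP3, a U3 snoRNP protein with a single-exon gene, differed from the rest of its group. It had 26.7, 27.4 and 11.1 RPKM under RPL9, RPL17 and RPL27 siRNA in HCT116, against 16.4 under NC, and 23.3, 19.9 and 12.6 RPKM under RPL9, RPL17 and RPL27 siRNA in HT29, against 38.2 under NC. RPL27 siRNA gave the lowest IMP3 value in both lines, and in HCT116 that value was the only one of the 40S genes below NC. In HT29 every RPL siRNA library lay below NC, by a mean difference of -1.04 as deposited and -0.63 with the length trend removed. Its values spread most over the siRNAs (SD 0.70 in HCT116 and 0.43 in HT29). Of the 40S genes not given by level, UTP15, WDR75, DDX10 and PNO1 had mean differences of 0.77, 0.54, 0.48 and 0.55 in HCT116 and 0.80, 0.52, 0.63 and 0.40 in HT29, where they became 0.36, 0.36, 0.32 and 0.35 with the length trend removed. IMP4 had 0.52 in HCT116 and 0.12 in HT29.

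Among the 60S genes, NOP2, RRP1B, RRS1, NIP7 and MDN1 were above NC in all 6 RPL siRNA libraries. NIP7, a factor of 60S and pre-ribosomal RNA maturation, had 539, 519.9 and 435 RPKM under RPL9, RPL17 and RPL27 siRNA in HCT116, against 249 under NC, a mean difference of 0.99 ± 0.17 (1.98-fold). NIP7 had 434, 388 and 334 RPKM under RPL9, RPL17 and RPL27 siRNA in HT29, against 226 under NC, and its NC value was the lowest in both lines. Its HT29 difference was 0.75 as deposited and 0.86 with the length trend removed. NOP2, the methyltransferase of 28S ribosomal RNA, had mean differences of 0.63 in HCT116 and 0.65 in HT29, the second being 0.49 with the length trend removed. MDN1, the giant ATPase that strips assembly factors from pre-60S particles, had 2277, 2539 and 2408 RPKM under RPL9, RPL17 and RPL27 siRNA in HCT116, against 1968 under NC. It had 1997, 2407 and 2421 RPKM under RPL9, RPL17 and RPL27 siRNA in HT29, against 477 under NC. MDN1 has the longest annotated transcript of the 52 genes, 18413 bases, and its HT29 difference of 2.25 became 0.64 with the length trend removed. RRP1B had 1063, 1010.3 and 844 RPKM under RPL9, RPL17 and RPL27 siRNA in HCT116, against 829.6 under NC. RRP1B had 741, 568 and 598 RPKM under RPL9, RPL17 and RPL27 siRNA in HT29, against 219 under NC. The HT29 difference of RRP1B was 1.52, and 0.70 with the length trend removed.

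RPF2 and RRS1, which load the 5S ribonucleoprotein with RPL5 and RPL11 onto the pre-60S particle, stood well above NC in HCT116. RPF2 had 1656, 1708 and 1394 RPKM under RPL9, RPL17 and RPL27 siRNA in HCT116, against 868 under NC. RPF2 had 1518, 1306 and 1089.8 RPKM under RPL9, RPL17 and RPL27 siRNA in HT29, against 1240.1 under NC, with NC inside the range. RRS1 had mean differences of 0.82 in HCT116 and 0.19 in HT29. RPF1 had 1315, 1338 and 1346 RPKM under RPL9, RPL17 and RPL27 siRNA in HCT116, against 988 under NC. It had 1084, 1144 and 1190.1 RPKM under RPL9, RPL17 and RPL27 siRNA in HT29, against 1189 under NC, with NC at the upper end of the range.

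BOP1 and PES1 form the PeBoW complex with WDR12, which is needed for processing of the 32S precursor. BOP1 had 1714, 1454 and 1374 RPKM under RPL9, RPL17 and RPL27 siRNA in HCT116, against 1208 under NC, and 1174, 913 and 978 RPKM under RPL9, RPL17 and RPL27 siRNA in HT29, against 1653 under NC. PES1 had 2422, 2101 and 2099 RPKM under RPL9, RPL17 and RPL27 siRNA in HCT116, against 1489.9 under NC, and 1544, 1379 and 1434 RPKM under RPL9, RPL17 and RPL27 siRNA in HT29, against 1670.1 under NC. Both were above NC in all 3 RPL siRNA libraries of HCT116 and below NC in all 3 of HT29, where the mean differences without the length trend were -0.76 for BOP1 and -0.14 for PES1. WDR12 differed little from NC as deposited (-0.00 in HCT116 and 0.14 in HT29). Its annotated transcript of 8100 bases gave it an HT29 value of -1.11 after removal of the length trend, so that corrected value rests on the annotated length.

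The remaining 60S genes ranged in HCT116 from the level of NC to 0.66 above it. NOP16, a nucleolar protein of 60S assembly, had 692, 466 and 446 RPKM under RPL9, RPL17 and RPL27 siRNA in HCT116, against 332 under NC. NOP16 had 633, 373 and 391 RPKM under RPL9, RPL17 and RPL27 siRNA in HT29, against 548 under NC, with NC inside the range, and in both lines RPL9 siRNA gave the highest value. EBNA1BP2 had 1882, 1502 and 1394 RPKM under RPL9, RPL17 and RPL27 siRNA in HCT116, against 1244 under NC. It had 1388, 1201 and 1123 RPKM under RPL9, RPL17 and RPL27 siRNA in HT29, against 1576 under NC, all below NC. RRP1, the paralog of RRP1B, had 817, 577 and 769.8 RPKM under RPL9, RPL17 and RPL27 siRNA in HCT116, against 645 under NC. It had 584, 469.8 and 487 RPKM under RPL9, RPL17 and RPL27 siRNA in HT29, against 782 under NC. RRP1 is the lowest 60S gene in the contrast of RPL siRNAs with NC, and RPL17 siRNA gave its lowest value in both lines. The HT29 mean differences of NOP16, EBNA1BP2 and RRP1 were -0.28, -0.35 and -0.61 as deposited. With the length trend removed they were 0.19, -0.06 and -0.86.

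GNL2 and GNL3, nucleolar GTPases, both stood above NC in HCT116. GNL2 had 1452, 1307 and 1377 RPKM under RPL9, RPL17 and RPL27 siRNA in HCT116, against 1166 under NC. It had 1195, 964 and 1091 RPKM under RPL9, RPL17 and RPL27 siRNA in HT29, against 1240.3 under NC, all below NC. GNL3, also called nucleostemin, had 4083, 3841 and 3472 RPKM under RPL9, RPL17 and RPL27 siRNA in HCT116, against 3006 under NC. GNL3 had 3047, 3057 and 2824 RPKM under RPL9, RPL17 and RPL27 siRNA in HT29, against 2983 under NC, with NC inside the range. SDAD1 had 1770, 1653 and 1454 RPKM under RPL9, RPL17 and RPL27 siRNA in HCT116, against 1617 under NC. SDAD1 had 1400.2, 1262 and 1227 RPKM under RPL9, RPL17 and RPL27 siRNA in HT29, against 1099.7 under NC, all above NC, while in HCT116 RPL27 siRNA lay below it. Its HT29 difference was 0.23 as deposited and -0.01 with the length trend removed. Those of GNL2 and GNL3 were -0.20 and -0.00 as deposited, and -0.27 and 0.04 with the length trend removed. BRIX1, MRTO4 and DDX18 had mean differences of 0.28, 0.28 and 0.06 in HCT116 and 0.02, -0.21 and 0.76 in HT29, where that of DDX18 became 0.30 with the length trend removed.

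The snoRNP genes stood on both sides of NC. NOLC1, the chaperone that carries snoRNPs to the nucleolus, had 3193, 3816 and 3081 RPKM under RPL9, RPL17 and RPL27 siRNA in HCT116, against 2006 under NC. It had 2625, 3179 and 2582 RPKM under RPL9, RPL17 and RPL27 siRNA in HT29, against 1046 under NC, a mean difference of 1.41 as deposited and 0.90 with the length trend removed. RPL17 siRNA gave the highest NOLC1 value in both lines, and all 6 RPL siRNA libraries were above NC. DKC1, the pseudouridine synthase of box H/ACA snoRNPs, had 1941, 2140 and 1786 RPKM under RPL9, RPL17 and RPL27 siRNA in HCT116, against 1465 under NC. It had 2615, 2570.5 and 2159 RPKM under RPL9, RPL17 and RPL27 siRNA in HT29, against 1558 under NC, again with all RPL siRNA libraries above NC.

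FBL, the methyltransferase of box C/D snoRNPs, was on the other side. It had 2458, 2413 and 2710 RPKM under RPL9, RPL17 and RPL27 siRNA in HCT116, against 2896 under NC, and 2686, 2426 and 2550.5 RPKM under RPL9, RPL17 and RPL27 siRNA in HT29, against 5398 under NC. Every RPL siRNA library lay below NC, by more in HT29. FBL and NPM1 were the 2 members below NC in all 6 RPL siRNA libraries (3.85% of members, background 13%). After removal of the length trend FBL stood at -0.22 in HCT116 and -0.64 in HT29. NOP56, a core box C/D protein, had 2812, 2813 and 2309.8 RPKM under RPL9, RPL17 and RPL27 siRNA in HCT116, against 2348 under NC. It had 2172, 2234 and 1966 RPKM under RPL9, RPL17 and RPL27 siRNA in HT29, against 2917 under NC, all below NC. NOP58, another core box C/D protein, had mean differences of 0.08 in HCT116 and -0.26 in HT29.

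The small box H/ACA proteins have short messages, and in HT29 each stood below NC. NHP2 had 866, 713 and 747 RPKM under RPL9, RPL17 and RPL27 siRNA in HCT116, against 780.3 under NC. It had 697, 689 and 578 RPKM under RPL9, RPL17 and RPL27 siRNA in HT29, against 1279 under NC. GAR1 had 657, 547 and 502 RPKM under RPL9, RPL17 and RPL27 siRNA in HCT116, against 407 under NC. It had 518, 425 and 461 RPKM under RPL9, RPL17 and RPL27 siRNA in HT29, against 687 under NC. NOP10 had mean differences of 0.36 in HCT116 and -0.51 in HT29. The HT29 values without the length trend were -0.46 for NHP2, -0.14 for GAR1 and -0.01 for NOP10.

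Of the 3 other nucleolar genes, DDX21 stood above NC and NPM1 below it in both lines. DDX21, a helicase that acts on both polymerase I and II transcripts, had 3212, 3593 and 2958 RPKM under RPL9, RPL17 and RPL27 siRNA in HCT116, against 2652 under NC. It had 3023, 3096 and 2633 RPKM under RPL9, RPL17 and RPL27 siRNA in HT29, against 661 under NC. Its HT29 difference of 2.14 became 1.38 with the length trend removed, the largest remaining of the 52 genes. NPM1, a histone and ribosome chaperone, had 30559, 30668 and 29250 RPKM under RPL9, RPL17 and RPL27 siRNA in HCT116, against 32095 under NC, and 24699, 23329 and 22831 RPKM under RPL9, RPL17 and RPL27 siRNA in HT29, against 33798 under NC. Its difference was small in HCT116 (-0.09 ± 0.04) and larger in HT29 (-0.52 ± 0.06), and under quantile normalization all 3 genes of this group, NPM1 included, stood above NC in HT29. NPM1 has 45 named processed pseudogenes in the annotation, with which its reads can be shared. NCL, nucleolin, had 13619, 14476 and 10397 RPKM under RPL9, RPL17 and RPL27 siRNA in HCT116, against 12082 under NC, and 12482, 12275 and 9530.5 RPKM under RPL9, RPL17 and RPL27 siRNA in HT29, against 12942 under NC. RPL27 siRNA gave the lowest NCL value in each line, and in HCT116 it was the only RPL siRNA below NC.

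In HT29 the direction of a member went with the length of its transcript. Of the 52 genes, 23 were above NC in all 3 RPL siRNA libraries (44.2%, background 46.6%) and 19 were below (36.5%, background 32.7%), and their median of 0.05 lay under the 0.19 of all genes tested. The rank correlation of the mean difference with transcript length over the 52 genes was 0.75 in HT29 and -0.03 in HCT116; the points of a line share its NC library. The 13 shortest members, up to 1706 bases, had a median of -0.37 in HT29 and 0.36 in HCT116. The 13 longest, from 3836 bases, had medians of 1.41 and 0.37. With the length trend removed, the correlation in HT29 was 0.26, with 24 members above NC in all 3 libraries (background 36%) and 16 below (background 40.8%), and a median of 0.11 against -0.05 of all genes. Median-centring put the median of all genes in HT29 at -0.23, with 18 members above NC in all 3 libraries (34.6%, background 31.3%) and 32 below (61.5%, background 49.2%).

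**Figure D3:**
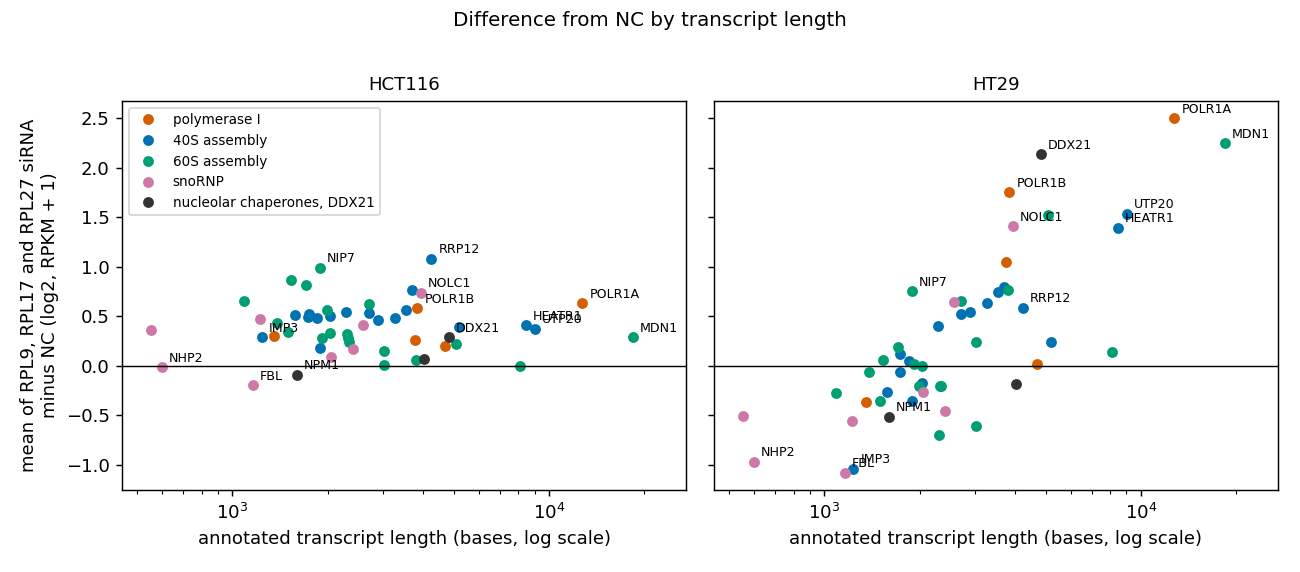
Mean log2 difference from NC over RPL9, RPL17 and RPL27 siRNA (y axis) against annotated transcript length (x axis, log scale) for the 52 genes, coloured by role, in HCT116 (left) and HT29 (right). The points of HCT116 lie between -0.20 and 1.08 at every length, while those of HT29 climb with length, from -1.08 for FBL to 2.50 for POLR1A.

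Across the 2 lines, 21 of the 52 genes were above NC in all 6 RPL siRNA libraries (40.4%), against 18% of all genes tested. By group these were 10 of 17 40S genes, 3 of 5 polymerase I genes, 5 of 19 60S genes, 2 of 8 snoRNP genes and DDX21. Removing the length trend gave 23 (background 16%): BRIX1, RPF1, RPF2 and IMP4 joined, and RRP12 and TSR1 dropped out. The count was 17 after median-centring (background 13.1%) and 21 after quantile normalization (background 14.9%). Under none of these scalings did a 40S, 60S or polymerase I gene lie below NC in all 6 libraries.

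Tested with the 2 lines as replicates (limma on all 14281 genes, Benjamini-Hochberg adjustment), no member changed past the threshold of 0.05. With the 3 RPL siRNAs averaged and set against NC, 24 of all genes did (0.168%). Unadjusted, 20 members had p under 0.05 (38.5%, background 24.6%), 19 of them higher and 1 lower. The median was 0.20 over the 52 genes, against 0.10 over all genes, and 0.65 for polymerase I genes, 0.47 for 40S genes, 0.18 for 60S genes and -0.08 for snoRNP genes. Median-centring put the median of all genes at -0.10 and that of the 60S genes at -0.02. The highest members by group were POLR1A (1.57, SE 0.41), UTP20 (0.96, SE 0.27), MDN1 (1.27), NOLC1 (1.07, SE 0.18) and DDX21 (1.21). The lowest adjusted p of the members in limma was 0.074, for NOLC1, and that of NIP7 was 0.076. Without the HCT116 NC library 32 members passed (61.5%, against 48.6% of all genes) and without the HT29 NC library 26 did (50%, against 12.9%). In these 2 fits the remaining NC library is assumed to vary like the RPL siRNA libraries, since it alone stands for NC.

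With the length trend removed, 5 members rose in the mean of the 3 RPL siRNAs and 0 fell; of all genes 5.86% passed, 2.7% higher and 3.16% lower. They were NOLC1 at 0.84 (SE 0.10; limma adjusted p = 0.018), NIP7 at 0.93 (0.021), POLR1A at 0.82 (0.028), POLR1B at 0.95 (0.036) and NOP2 at 0.57 (0.039). The corrected mean differences of POLR1A and POLR1B were 0.64 and 0.62 in HCT116, and 0.99 and 1.27 in HT29, which carry the HT29 NC library. That of POLR1A also rests on its annotated transcript length of 12749 bases. NOP2 had 1581, 1474 and 1291 RPKM under RPL9, RPL17 and RPL27 siRNA in HCT116, against 933 under NC, and 1426, 1318 and 1263 RPKM under RPL9, RPL17 and RPL27 siRNA in HT29, against 848 under NC. All 5 were above NC in 6 of 6 RPL siRNA libraries, the same libraries that gave the calls, so this is no separate support. Against NC one siRNA at a time, NIP7, NOLC1 and POLR1A rose under RPL9 siRNA by 1.08, 0.79 and 0.92 (1.42% of all genes rose and 2.94% passed in either direction). NOLC1 rose by 1.02 under RPL17 siRNA, where 0.24% of all genes rose, 0.0846% fell and 0.324% passed. No member passed under RPL27 siRNA, where 1.45% of all genes did. There 16 members had an unadjusted limma p under 0.05 (30.8%, background 20.3%). As deposited, 0 members passed in these 3 contrasts, where 0.007% of all genes did for RPL9, 0.014% for RPL17 and 0% for RPL27. At an unadjusted limma p under 0.05 there were 19 for RPL9 (36.5%, background 20.4%) and 19 for RPL17 (36.5%, background 15.7%). RPL27 gave 14 (26.9%, background 16.7%).

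Set against each other within the 6 RPL siRNA libraries, which leaves both NC libraries out, the siRNAs differed by small amounts, with RPL9 above and RPL27 below the mean of the others for most members. RPL9 siRNA gave values above the mean of the other two in both lines for 37 of 52 genes (71.2%), against 31.7% of all genes, and RPL27 siRNA gave values below the mean of the other two in both lines for 36 (69.2%), against 32.5%. The medians of the members were 0.16 for RPL9, 0.01 for RPL17 and -0.15 for RPL27, and those of all genes were 0.00, 0.01 and -0.00. The 3 contrasts share their libraries, so they are not independent. For RPL9 siRNA the pattern held for 16 of 19 60S genes, 12 of 17 40S genes, 4 of 8 snoRNP genes and 3 of 5 polymerase I genes. For RPL27 siRNA it held for 15 60S genes, 8 40S genes, 6 snoRNP genes, 4 polymerase I genes and all 3 of NCL, NPM1 and DDX21.

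Single genes passed the threshold in these contrasts. NOP16 rose under RPL9 siRNA relative to the other two by 0.66 (SE 0.08; limma adjusted p = 0.036), that is by 0.60 in HCT116 and 0.73 in HT29, where 0.329% of all genes rose and 0.707% passed in either direction. NCL fell by 0.41 under RPL27 siRNA (SE 0.04; limma adjusted p = 0.021), where 0.777% of all genes fell and 1.25% passed in either direction. The difference was -0.43 in HCT116 and -0.38 in HT29. For RPL17 siRNA no member passed (0.42% of all genes did), the nearest being NOLC1 at 0.29 (limma adjusted p = 0.063). There 14 members had an unadjusted limma p under 0.05 (26.9%, background 18%). At an unadjusted p under 0.05 there were 25 members for RPL9 siRNA, 23 of them higher, and 21 for RPL27 siRNA, all lower; all genes gave 20.4% and 18.5%. IMP3 had the largest difference for RPL27 siRNA, -1.21 in HCT116 and -0.72 in HT29, without passing (limma adjusted p = 0.12). The NOP16 call was lost without any 1 of the 6 libraries, and the NCL call without either RPL17 or either RPL27 siRNA library, when 0 members passed. Both calls were also lost without limma's trend or with the NC libraries in the fit.

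**Figure D4:**
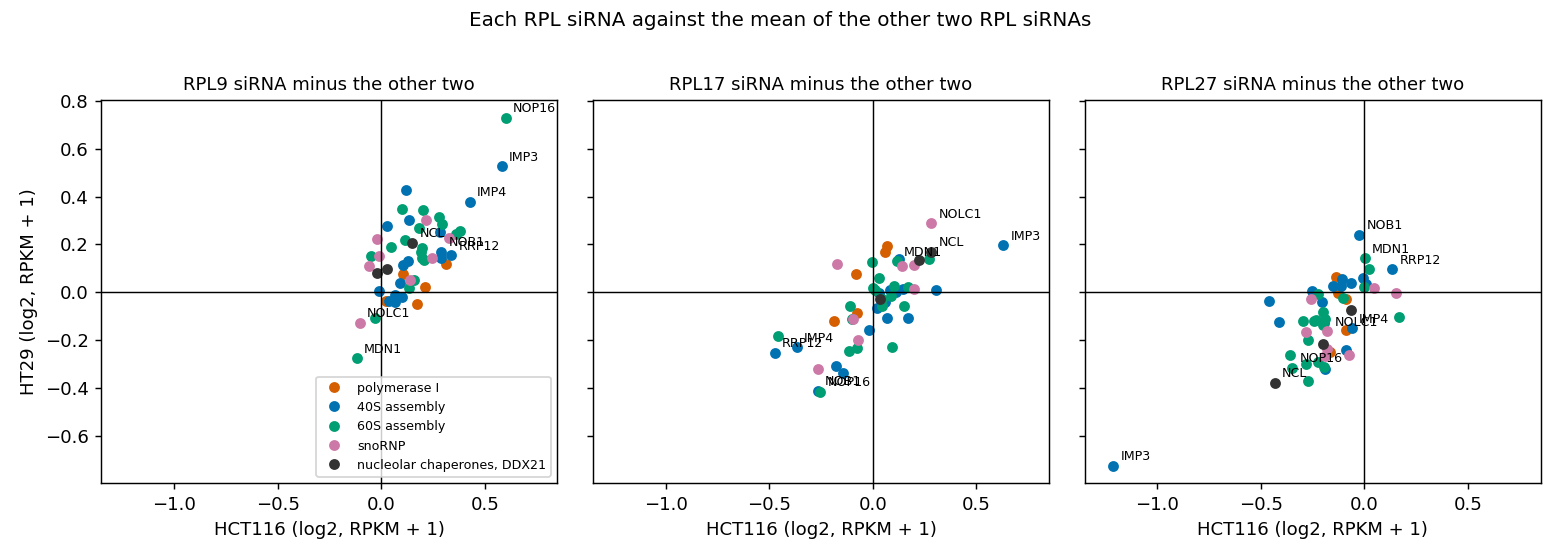
Log2 difference of 1 RPL siRNA from the mean of the other two in HCT116 (x axis) and HT29 (y axis), 1 panel per siRNA and 1 point per gene, coloured by role. Under RPL9 siRNA 37 of 52 points lie above 0 on both axes, and under RPL27 siRNA 36 lie below 0 on both.

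The 2 lines were compared over the same 6 RPL siRNA libraries, with the siRNAs as replicates. HCT116 stood above HT29 under all 3 RPL siRNAs for 39 of 52 genes (75%), against 31.1% of all genes, and below for 1, DKC1 (background 26.3%). By limma, 25 members were higher in HCT116 (48.1%, against 11.1% of all genes) and 1 was lower (1.92%, against 11.7%). The median difference was 0.24 over the members and 0.04 over all genes. The called genes were 11 of 19 60S genes, 10 of 17 40S genes, NOP56 and NOLC1 higher and DKC1 lower among the snoRNP genes, and NCL and NPM1. None of the 5 polymerase I genes passed, and their median was 0.08.

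The largest of these differences were in 60S genes. RRP1B was higher in HCT116 by 0.62 (SE 0.09; limma adjusted p = 0.0063), PES1 by 0.60 (SE 0.05; 0.0012) and BOP1 by 0.57 (SE 0.06; 0.0028). RRP1 and TSR1 followed, both with 0.48. DKC1 was lower in HCT116, at -0.32 (SE 0.05; limma adjusted p = 0.012). Among the other called genes the difference ran between 0.16 for NCL and 0.40 for WDR43. After the length trend was removed, 32 members were higher (background 16.9%) and 0 lower. The count of called members was 7 without either RPL17 siRNA library, 13 without the HCT116 RPL27 library and 14 without the HT29 one; it was 1 without limma's trend and 0 with the NC libraries in the fit.

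**Figure D5:**
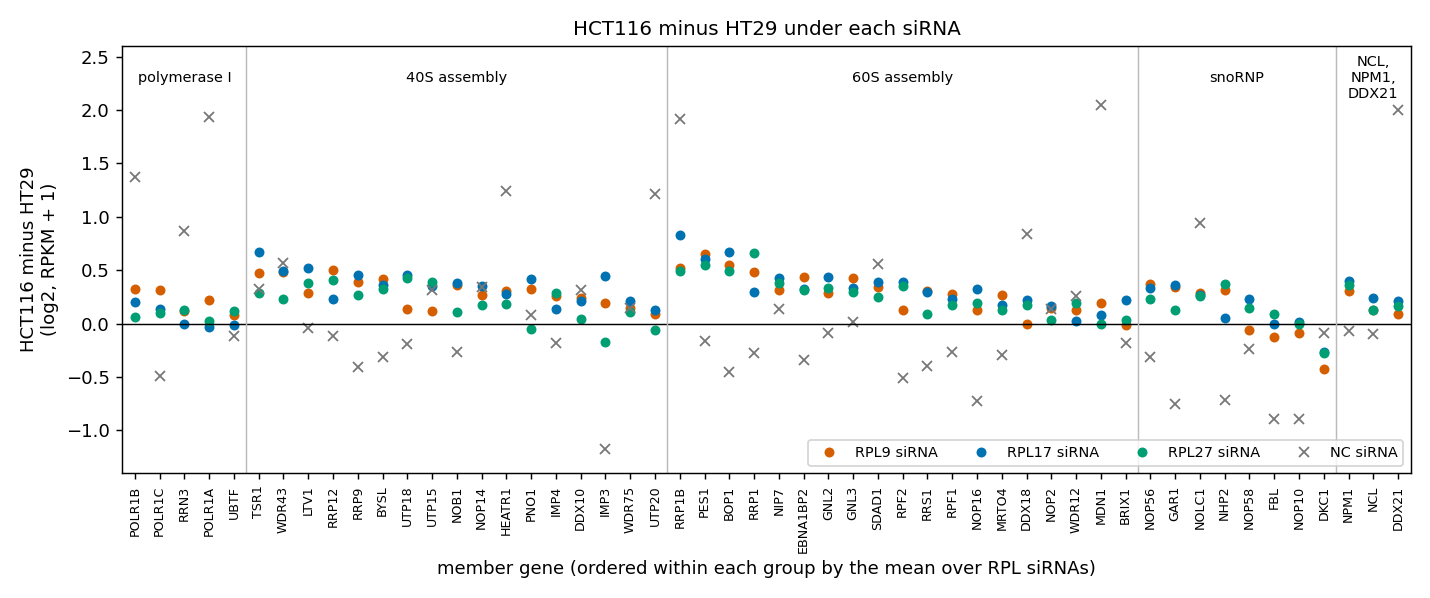
HCT116 minus HT29 (y axis, log2) for the 52 genes (x axis, grouped by role) under RPL9, RPL17 and RPL27 siRNA (points) and under NC (crosses). Under the RPL siRNAs 39 genes have all 3 points above 0, while the NC crosses spread from -1.17 for IMP3 to 2.04 for MDN1.

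A limma fit with an interaction of line and RPL siRNA took its error from the spread of the 3 RPL siRNAs within each line and held 1 NC library per line. A difference between the lines therefore cannot be told apart from a deviation of either NC library, and its p-values leave the error of those libraries out of the replicate spread. In that fit 14 members passed, as did 22.9% of all genes. Relative to HT29, the difference from NC in HCT116 was lower for MDN1 (-1.96), POLR1A (-1.87), DDX21 (-1.85), RRP1B (-1.30), POLR1B (-1.18), UTP20 (-1.16), HEATR1 (-0.99) and RRN3 (-0.79), 15.4% of the members against 16.8% of all genes. It was higher for GAR1 (1.03), BOP1 (1.02), NHP2 (0.96), FBL (0.88), PES1 (0.77) and NPM1 (0.43), 11.5% against 6.11%. Once the length trend was removed 4 members passed: WDR12 (1.15), BOP1 (1.09) and UBTF (0.96) higher and DDX21 (-1.03) lower, where 3.23% and 4.67% of all genes were. WDR12 had 1210.5, 1102 and 1009 RPKM under RPL9, RPL17 and RPL27 siRNA in HCT116, against 1106 under NC, and 1111, 1082 and 884 RPKM under RPL9, RPL17 and RPL27 siRNA in HT29, against 925 under NC. Of these 4, BOP1 and DDX21 also passed as deposited.

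The pathway's other genes, 92 factors that are not among the 52, gave a similar picture in HCT116. Of them 69 were above NC in all 3 RPL siRNA libraries of HCT116 (background 33%) and 7 below (background 32.4%). In HT29 43 were above NC in all 3 (background 46.6%) and 34 below (background 32.7%). With the length trend removed, 27 were above in HT29 (background 36%) and 44 below (background 40.8%). Their HT29 median was then -0.10, against -0.05 of all genes. In both lines together 35 were above NC in all 6 RPL siRNA libraries (38%, background 18%) and 6 below (6.52%, background 13%). With the length trend removed these were 23 (25%, background 16%) and 4 (4.35%, background 16.7%). The median difference in the mean contrast was 0.28, with 0 past the threshold. At an unadjusted p under 0.05 there were 35 (38%, background 24.6%), 31 of them higher. The highest were NOL6, a processome subunit, at 1.21 (limma adjusted p = 0.067), URB1 at 1.08 and ZNHIT6, a box C/D assembly factor, at 0.90. The lowest were WDR18 at -0.74, PIH1D1 at -0.62 and RSL24D1 at -0.62. Without the length trend 4 rose (4.35%, background 2.7%) and 1 fell (1.09%, background 3.16%). NOL6, SBDS, PAK1IP1 and LSG1 were higher by 0.86, 0.79, 0.75 and 0.59, and RSL24D1 lower at -0.59. SBDS, PAK1IP1 and LSG1 were named after their values were seen.

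MYC had 399, 286 and 294 RPKM under RPL9, RPL17 and RPL27 siRNA in HCT116, against 167 under NC, and 258, 232 and 229 RPKM under RPL9, RPL17 and RPL27 siRNA in HT29, against 202 under NC. MYC was above NC in all 6 RPL siRNA libraries, with its highest value under RPL9 siRNA in both lines, and did not pass the threshold (0.60, SE 0.22; limma adjusted p = 0.18). Its part in the results above was not tested. RPL11 had 12250, 13121 and 12594 RPKM under RPL9, RPL17 and RPL27 siRNA in HCT116, against 9679 under NC. RPL11 had 12860, 13518 and 12204 RPKM under RPL9, RPL17 and RPL27 siRNA in HT29, against 21056 under NC. RPL5 had 12677, 10978 and 14214 RPKM under RPL9, RPL17 and RPL27 siRNA in HCT116, against 12853 under NC, and 13311, 10427 and 13248 RPKM under RPL9, RPL17 and RPL27 siRNA in HT29, against 22118 under NC. Both proteins are the cargo of RPF2 and RRS1, and in HT29 every RPL siRNA library lay below NC for both. Their HT29 mean differences were -0.71 for RPL11 and -0.85 for RPL5 as deposited, and -0.23 and -0.37 with the length trend removed.

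Annotated features of the 52 genes were also listed. In GENCODE 29, 7 of the 52 genes hold 21 annotated small nucleolar RNAs on their strand within the gene (13.5%), against 1.05% of the tested genes found there. They are NCL, NOP56, NOP58, DKC1, GNL3, WDR43 and TSR1, so the genes of the snoRNP proteins NOP56, NOP58 and DKC1 themselves hold snoRNAs. In HCT116 WDR43, DKC1, TSR1 and GNL3 were above NC in all 3 RPL siRNA libraries and NCL, NOP56 and NOP58 were not. Transcript lengths ran from 554 bases for NOP10 to 18413 for MDN1, with a median of 2324.5. An annotated gene on the other strand overlaps 27 of the 52 genes, and whether the counting used strand is not known, so reads of these pairs may be mixed.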

How the data were processed

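Polymerase I and ribosome assembly genes were read from a table of RPKM values per gene that the authors deposited for 8 libraries of total RNA. Per the submitters' processing notes, CASAVA 1.8.2, TopHat2 2.0.9 and hg19 were used; how reads were assigned to genes, and whether strand was used, was not given in the sources used here. Levels behaved roughly like sums over exons, which was not tested further, so they were compared between libraries and not between genes. From the deposited RPKM, log2(RPKM + 1) values were computed (pseudocount 1), and 14281 of 19124 genes averaging 1 RPKM or more were kept. Contrasts were fitted with limma 3.58.1 (trend, two-sided, Benjamini-Hochberg over all genes, threshold 0.05) in R 4.3.3, with the cell line as a term for the siRNA contrasts. Summaries used Python 3.11.15, pandas 2.3.3 and matplotlib 3.10.9. The code was tested on simulated data. No label says that libraries came from separate cultures, and each line and siRNA has 1 library, so p-values measure only the spread between the lines or between the siRNAs. Depth limits precision, and the reads per library were estimated and not given.

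A second version removed each library's trend with transcript length (spline, 5 df, 14180 genes with a length in GENCODE 29). Other alternatives were other filters, pseudocounts and normalizations, limma without trend, all 8 libraries, no cell line term, and leaving out each library. Levels in every library were given for the polymerase I genes, for members past the threshold in any contrast and for the highest and lowest member of each role in the mean contrast; NOP2 and WDR12 were added after their values were seen. Of the pathway's other genes, the 3 highest and 3 lowest were named. Members and lists were chosen with earlier results of these data known. No columns were left out.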

Additional observations from a re-analysis of the deposited data

Results flagged for a closer look

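The interaction of line and RPL siRNA passed the threshold for 14 of the 52 genes in limma, as it did for 22.9% of all genes tested. The fit has 1 NC library in each line and takes its error from the spread of the 3 RPL siRNAs, so a difference between the lines and a deviation of either NC library cannot be told apart. HCT116 minus HT29, the difference from NC was -1.96 for MDN1, -1.87 for POLR1A, -1.85 for DDX21, -1.30 for RRP1B, -1.18 for POLR1B, -1.16 for UTP20, -0.99 for HEATR1 and -0.79 for RRN3. It was 1.03 for GAR1, 1.02 for BOP1, 0.96 for NHP2, 0.88 for FBL, 0.77 for PES1 and 0.43 for NPM1. The median over all genes tested was -0.19. With the length trend of each library removed, DDX21 (-1.03) and BOP1 (1.09) kept an adjusted p under 0.05, POLR1B stood at -0.65, POLR1A at -0.35 and MDN1 at -0.39, and HEATR1 and UTP20 had the other sign.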

How the results depend on the processing

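Counts are of the 52 genes past the threshold. With the length trend removed there were 5 for the RPL siRNAs averaged against NC, 3 for RPL9 and 1 for RPL17 siRNA against NC, and 4 for the difference between lines in the effect. Of all genes, 5.86%, 2.94%, 0.324% and 7.9% passed in these contrasts, in that order. The count for the difference in effect was 29 after median-centring and 8 without trend. Median-centring also moved the median of all genes in that contrast from -0.19 to 0.25. Where no share of all genes is given, a count shows how calls depend on processing and not a property of the pathway. Against the other two siRNAs, RPL9 gave 2 with a mean of at least 5 RPKM and 0 with no filter, without trend, without the cell line as a replicate block or with all 8 libraries; RPL27 gave 0 under those same 4 settings, and RPL17 gave 2 with a mean of at least 5 RPKM and 2 after quantile normalization. HCT116 against HT29 gave 13 with no filter, 1 without trend and 0 with all 8 libraries. The median against NC was -0.019 for 60S genes and 0.0018 for all members after median-centring; for 40S genes it was 0.34 after quantile normalization, 0.27 after median-centring and 0.33 with the length trend removed. Over the 52 genes the mean contrast had the other sign for 8 with the length trend removed, for 12 after median-centring, UBTF (-0.087) among them, and for 4 after quantile normalization. Those 8 were POLR1C (0.14), UBTF (-0.22), TSR1 (-0.08), WDR12 (-0.54), EBNA1BP2 (0.14), GAR1 (0.15), NOP10 (0.14) and GNL2 (-0.01). In the difference between lines it turned for HEATR1 (0.34) and UTP20 (0.20) with the length trend removed and NPM1 (-0.41) after quantile normalization. The cause was not tested. Leaving out 1 library, counts ranged from 0 to 32 for the mean contrast, 0 to 30 for RPL9, 0 to 33 for RPL17 and 0 to 36 for RPL27 siRNA against NC, always highest without an NC library; from 0 to 0 for RPL9 and 0 to 1 for RPL27 against the other two; from 7 to 24 between lines; and from 12 to 17 for their difference in effect, where a fit without either NC library is not possible. Against NC, the highest count came without the HT29 NC library for RPL9 siRNA. For the mean contrast, RPL17 and RPL27 it came without the HCT116 NC library, so these maxima are not like for like. In each such fit 1 NC library stands for NC, and far more of all genes passed too. These maxima thus do not set the pathway apart. With 1 library left out, the snoRNP median ranged from -0.48 to 0.26, IMP3 from -1.04 to 0.29, POLR1C from -0.37 to 0.30 and RRP1 from -0.61 to 0.15. The labels give no replicate pairs, so the block is the cell line alone.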

Other observations

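Members were set side by side by whether the promoter window holds CACGTG. In HCT116 the median difference from NC was 0.37 over the 21 with it, 19 of them above NC in all 3 RPL siRNA libraries, and 0.39 over the 23 without it, with 16 above. For a whole match after the start the medians were 0.46 over the 16 genes with it, with 15 above, and 0.37 over the 28 without it, with 20 above. Of all genes tested, 33% were above NC in all 3 RPL siRNA libraries of HCT116. In HT29 the medians were -0.09 with and 0.08 without a whole match after the start. For a match anywhere in the window they were -0.0045 with and 0.0217 without it. These values were not tested.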
